A study of Mus musculus with 6 samples.

Results

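B cell marker genes were followed in 6 one-colour Affymetrix arrays of mouse macrophage RNA, 1 array per sample. The 8 genes were Cd79a, Cd79b, Ms4a1, Cd22, Pax5, Pou2af1, Fcer2a and Blnk, out of 18193 genes named by a single-gene probe set. They were chosen by name, with earlier results of these data known. Every probe set mapping to one of them alone was taken, which gave 12 of 45037 probe sets. In 4 arrays, here the Trib1 line, LPS-treated macrophages of Trib1 knockout (KO; n = 2) and wild-type (n = 2) mice were compared after the same stimulus, LPS being the bacterial lipopolysaccharide sensed by a Toll-like receptor. The other 2 arrays, the LPS pair, hold wild-type macrophages with LPS (n = 1) or medium alone (n = 1), and the series uses them to define LPS-inducible genes. The labels give neither the tissue from which the macrophages came nor their purity, strain, sex or age, the knockout allele, or the dose and time of LPS. The labels do not state whether the 2 samples of a genotype were independent animals, and the p-values may thus reflect technical spread alone.

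The B cell receptor is a membrane immunoglobulin held in a complex with a signalling heterodimer, which recruits Syk and its adaptors when antigen binds. CD20 and CD22 are further surface proteins of B cells, and Pax5 and the octamer coactivator encoded by Pou2af1 keep the B cell programme running. Immunoglobulin is made by cells of the B lineage, while some genes of this group, Blnk among them, are also used by myeloid cells. In RNA from a bulk preparation, fewer B cells and less of a transcript per cell cannot be told apart.

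All arrays were scaled to a common trimmed mean of 234, and values under 29.9, the pooled 40th percentile, were treated as a floor. Between 57.9% and 63.0% of probe sets exceeded it on each array. Of 20 macrophage identity genes on the array, 19 lay above the floor on all 6 arrays, among them Adgre1 (F4/80), Cd68 and Csf1r. Trib1 itself, on 1424880_at, had 88.1 and 20.9 on the arrays labelled KO, against 17.9 and 17.5 on the wild-type ones, and the LPS pair had 189.3 with LPS and 383.5 in medium. The lower KO value and both wild-type values there were under the floor. On 1424881_at Trib1 had 32.3 and 38.7 against 20.2 and 63.0, with overlap, and 29.3 with LPS and 37.1 in medium in the LPS pair. Where these probe sets lie relative to the deleted part is not given, so they do not check the labels, and the arrays are called KO-labelled. The LPS pair and the Trib1 line also differed in sex-linked transcripts and in deposited scale: Xist had 859 and 850.8 in the LPS pair and from 58.2 to 120.4 in the Trib1 line, while the Y-linked Eif2s3y was under the floor in the LPS pair and between 219 and 534 in the Trib1 line.

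Cd79a, Cd79b, Ms4a1, Pou2af1, Pax5 and Fcer2a had lower values on both KO-labelled arrays than on both wild-type arrays of the Trib1 line, and none passed the test. The estimates were 1.78-fold lower for Cd79a, 1.79-fold for Cd79b, 1.96-fold for Ms4a1 and 2.12-fold for Pou2af1. Cd22 and Blnk did not follow, with overlapping genotypes. Cd79a, Cd79b, Ms4a1 and Pou2af1 were highest, among the 6 arrays, on that of the LPS pair treated with LPS.

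Cd79a encodes Ig-alpha, one of the signalling chains of the receptor. Its scaled intensity on 1418830_at was 66.5 and 82.8 on the KO-labelled arrays, against 117 and 149 on the wild-type arrays of the Trib1 line. The groups did not overlap, and both lay under the LPS pair, which had 628 with LPS and 331.6 in medium. The log2 difference between genotypes was -0.83 (SE 0.36, 95% interval -1.73 to 0.06, n = 2 each; limma adjusted p = 0.999, by Benjamini-Hochberg).

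Cd79b encodes Ig-beta, its partner chain. On 1417640_at it had 44.2 and 74.9 on the KO-labelled arrays and 87.0 and 122 on the wild-type arrays. The higher KO-labelled value came close to the lower wild-type value without reaching it. On the LPS pair Cd79b had 550.5 with LPS and 425 in medium. The genotype log2 difference was -0.84 (SE 0.43, interval -1.91 to 0.23, limma adjusted p = 0.999).

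Ms4a1 encodes CD20, a B cell surface protein and the target of rituximab in human patients. On 1423226_at it had 76.5 and 145 on the KO-labelled arrays and 189 and 225 on the wild-type arrays, with no overlap. A second probe set, 1450912_at, was under the floor on both KO-labelled arrays (26.7 and 19.7) and had 60.3 and 62.3 on the wild-type arrays. Both probe sets peaked on the LPS array, at 1006 and 273, and had 409 and 89.9 in medium. The log2 difference was -0.97 on the first probe set (SE 0.41, interval -1.99 to 0.05, limma adjusted p = 0.999). The second was at least 2.05-fold lower on the KO-labelled arrays, a bound set by the floor (limma adjusted p = 0.899), and it entered the test only through its wild-type values. Its log2 difference was -1.04 with this floor, -1.42 with a floor at the 25th percentile and -0.37 with the values as deposited.

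Pou2af1 encodes OCA-B, which binds Oct factors on octamer sites of immunoglobulin promoters. On 1416957_at it had 40.1 and 37.5 on the KO-labelled arrays, just above the floor, against 75.3 and 89.5 on the wild-type arrays. Its value on the LPS array was 391.8, against 118 in medium. The genotype log2 difference was -1.08 (SE 0.33, interval -1.90 to -0.26, limma adjusted p = 0.950), and its unadjusted p was 0.0183.

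Pax5, the factor that commits cells to the B lineage, has 2 probe sets. On 1454401_at it had 65.0 and 69.2 on the KO-labelled arrays and 80.4 and 87.4 on the wild-type arrays. In the LPS pair it had 135 with LPS and 103 in medium. The genotypes were separate but near each other (log2 difference -0.32, SE 0.34, interval -1.17 to 0.53, limma adjusted p = 0.999). On 1421765_at Pax5 was above the floor on the medium array alone, at 31.2, and was not tested.

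Fcer2a encodes CD23, the low-affinity IgE receptor. On 1422122_at it had 38.7 and 18.9 on the KO-labelled arrays and 53.9 and 92.7 on the wild-type arrays, with 37.6 and 35.1 on the LPS and medium arrays. Thus its wild-type values in the Trib1 line lay above the LPS pair, the reverse of Cd79a, Cd79b, Ms4a1 and Pou2af1. With KO 2 set to the floor, the log2 difference was -1.06 (SE 0.40, interval -2.04 to -0.07, limma adjusted p = 0.967), and it moved with the floor and the arrays used. It was -1.39 with a floor at the 25th percentile, -0.57 with the values as deposited and -0.67 without wild type 2. The other probe set, 1451713_a_at, was under the floor on all 6 arrays.

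Cd22 encodes an inhibitory sialic acid-binding receptor of B cells. On 1419768_at it had 812 and 1007 on the KO-labelled arrays and 1009.8 and 854 on the wild-type arrays, with 676 and 760.5 on the LPS and medium arrays. The genotypes overlapped (log2 difference -0.04, SE 0.21, interval -0.56 to 0.48, limma adjusted p = 0.999). On 1419769_at the values were 404 and 383 against 518 and 381, again overlapping (-0.17, SE 0.24, interval -0.78 to 0.43). Both Cd22 probe sets were lowest on the LPS array, where Cd79a, Cd79b, Ms4a1 and Pou2af1 were highest.

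Blnk encodes the adaptor that links Syk to downstream signalling. On 1451780_at it had 1134 and 1887 on the KO-labelled arrays and 732 and 2102 on the wild-type arrays, with 2094 and 1635 on the LPS and medium arrays. The 2 wild-type arrays, alike in genotype and treatment, differed 2.87-fold, and the genotype means 1.18-fold. The log2 difference was 0.24 (SE 0.53, interval -1.07 to 1.55, limma adjusted p = 0.999), so the interval includes differences above 2-fold in either direction.

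**Figure D1:**
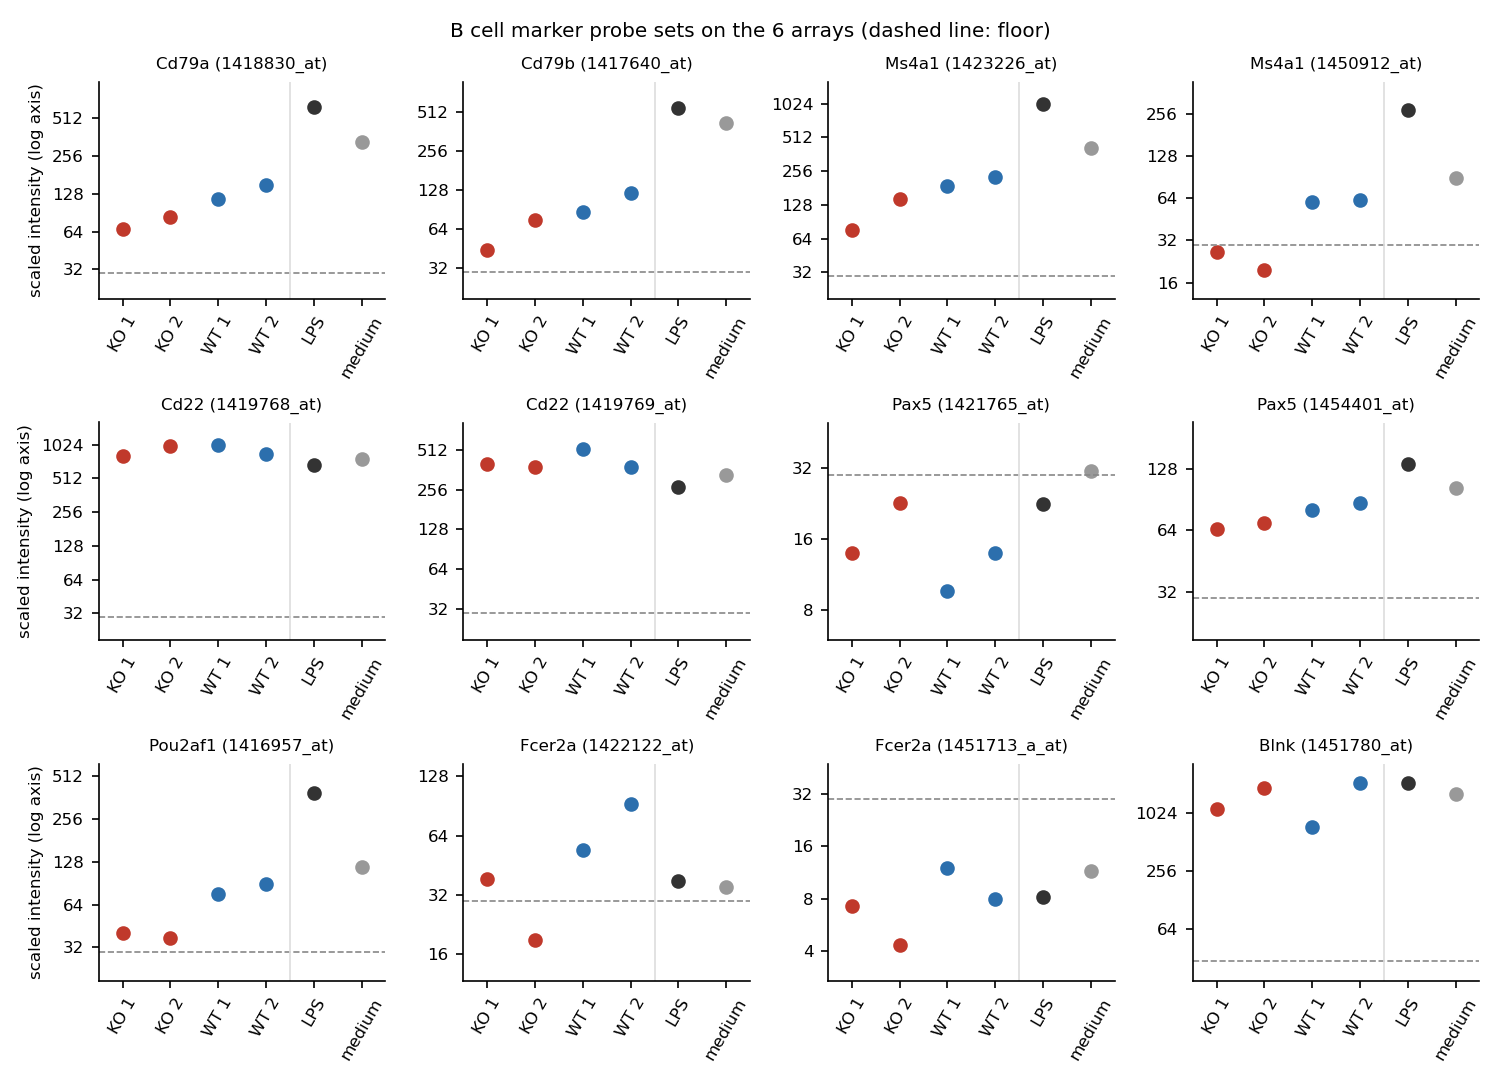
Scaled intensity (vertical log axis, each panel on its own range) of the 12 probe sets on the KO-labelled (red) and wild-type (blue) arrays of the Trib1 line and on the LPS (black) and medium (grey) arrays of the LPS pair. Cd79a, Cd79b, Ms4a1 and Pou2af1 are lowest on the KO-labelled arrays and highest on the LPS array, while Cd22 and Blnk show no such order.

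Over the table, limma called 0 of 29078 probe sets between genotypes (0%), and so 0 of the 10 B cell marker probe sets tested. The count over all probe sets was 28 without KO 1, 68 without KO 2, 5 without wild type 1 and 12 without wild type 2, with 0 marker probe sets among them each time. At an unadjusted p under 0.05 it gave 663 higher and 788 lower on the KO-labelled arrays, and lower ones made up 2.71% of those tested. The lower ones included 3 of the 10 marker probe sets, of Ms4a1 (1450912_at), Pou2af1 and Fcer2a. Both KO-labelled arrays lay below both wild-type arrays for 7 of the 10 tested marker probe sets, from 6 of the 8 genes, beside 16.3% of all probe sets tested. They lay above both for 0 of the 10, beside 15.4% of all, and the other 2 marker probe sets, of Pax5 and Fcer2a, were under the floor on these arrays. Of the 7, the Ms4a1 probe set 1450912_at could only appear on that side, since it was measured on the wild-type arrays alone. The members were chosen with earlier results of these data known, so these shares are a description only. The median log2 difference over the 8 genes, with 1 probe set each, was -0.84, beside -0.01 over all probe sets tested. It was -0.48 without KO 1 and -0.25 with a floor at the 60th percentile. Without KO 1 the differences of Cd79b and Ms4a1 were -0.46 and -0.51, and with that higher floor the difference of Pou2af1 was -0.22.

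**Figure D2:**
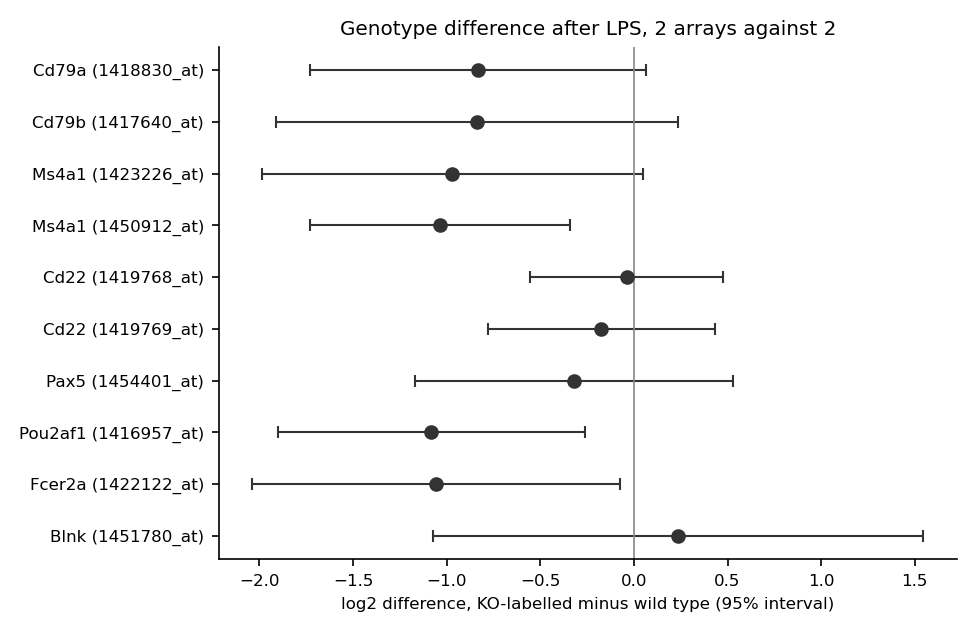
Log2 difference of KO-labelled minus wild-type arrays (points) with 95% intervals from limma (bars) for the 10 tested probe sets, 2 arrays per genotype. The point of Pou2af1 lies at -1.08 and that of Blnk at 0.24; the value of Ms4a1 on 1450912_at is a bound set by the floor, and that of Fcer2a is partly set by it.

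Arrays of the same genotype also differed. The wild-type array numbered 2 was above the one numbered 1 by 1.28-fold for Cd79a, 1.40-fold for Cd79b, 1.19-fold for Ms4a1 (1423226_at) and 1.19-fold for Pou2af1. Between the KO-labelled arrays, number 2 over number 1, the ratios were 1.25 for Cd79a, 1.69 for Cd79b, 1.90 for Ms4a1 and 0.935 for Pou2af1. The spread of Cd79b and Ms4a1 between KO-labelled arrays was thus nearly as large as their genotype difference. For Cd79a, Cd79b and Ms4a1, however, number 2 was the higher array in both genotypes. Between arrays of the same number, wild type over KO-labelled, the ratios were 1.76 and 1.80 for Cd79a and 1.97 and 1.63 for Cd79b. They were 2.47 and 1.55 for Ms4a1 and 1.88 and 2.39 for Pou2af1. The labels do not state whether the numbers pair the arrays.

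The LPS pair asks what LPS does in wild-type macrophages. With 1 array each there is no replicate check and no test. Pou2af1 was 3.31-fold higher with LPS than in medium, Ms4a1 was 2.46-fold (1423226_at) and 3.04-fold (1450912_at) higher, and Cd79a was 1.89-fold higher. Cd79b (1.29-fold), Pax5 on 1454401_at (1.31-fold), Blnk (1.28-fold) and Fcer2a (1.07-fold) differed less, and Cd22 was 1.13-fold and 1.22-fold lower. No marker probe set reached 4-fold, 0 of 11 in either direction, beside 0.986% of all probe sets at least 4-fold higher and 0.598% at least 4-fold lower. At least 2-fold higher were 3 of the 11, from Ms4a1 and Pou2af1, beside 5.02% of all. The median log2 ratio of the 8 genes was 0.38, and -0.09 over all probe sets above the floor.

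The direction of these ratios differed with the LPS-treated wild-type array set against medium. Cd79a had 117 and 149 on the LPS-treated wild-type arrays of the Trib1 line, 2.84-fold and 2.22-fold lower than the 331.6 of the medium array. Cd79b was 4.89-fold and 3.49-fold lower than medium there, Ms4a1 (1423226_at) 2.16-fold and 1.82-fold, and Pou2af1 1.57-fold and 1.32-fold. On both of these LPS-treated arrays the genes thus lay under the medium array, and on the LPS array above it.

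The LPS array of the LPS pair was 5.38-fold and 4.21-fold above the wild-type arrays of the Trib1 line for Cd79a, 6.33-fold and 4.52-fold for Cd79b, 5.31-fold and 4.46-fold for Ms4a1 (1423226_at) and 5.20-fold and 4.38-fold for Pou2af1. These 3 arrays share genotype and treatment as labelled, but array set, sex-linked transcripts and deposited scale differ together and cannot be told apart. The LPS array exceeded both by 2-fold or more for 5 of 10 marker probe sets, from these 4 genes, beside 2.37% of all, and was 2-fold or more below both for 0 of 10, beside 2.71% of all. The medium array exceeded them by 2-fold or more for Cd79a and Cd79b, 2 of 11 marker probe sets, beside 4.33% of all. This rule was chosen after the values were seen, and the members with earlier results of these data known.

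**Figure D3:**
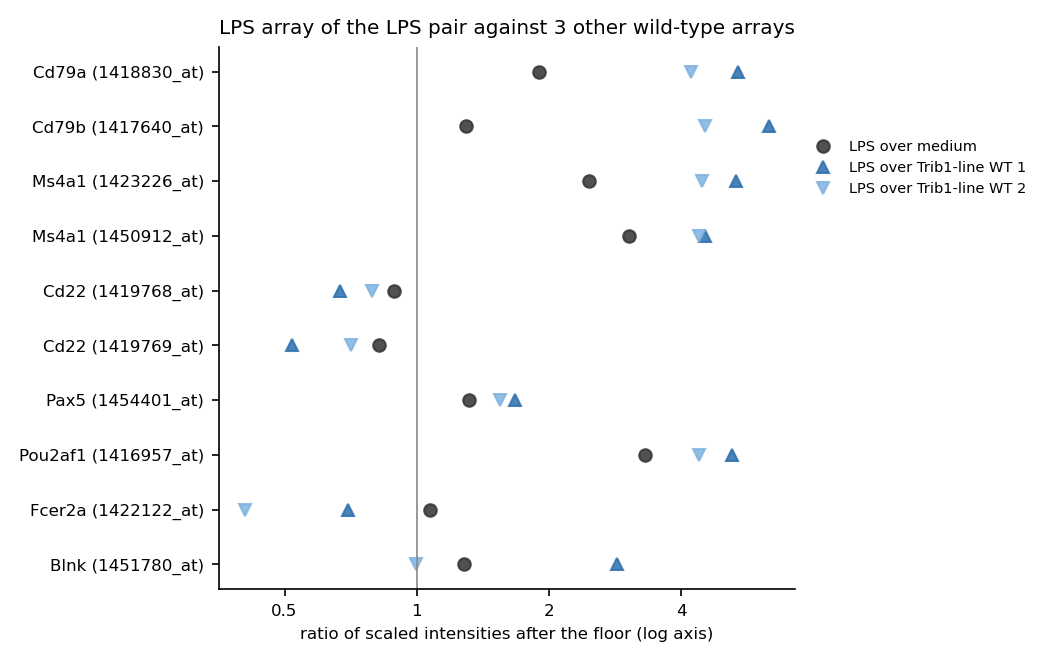
Ratio (log axis) of the LPS array of the LPS pair over medium (circles) and over each LPS-treated wild-type array of the Trib1 line (triangles), for the 10 probe sets above the floor on more than 1 array. For Cd79a, Cd79b, Ms4a1 and Pou2af1 the triangles lie between 4.21 and 6.33, to the right of the circles, which lie between 1.29 and 3.31.

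Cd79a, Cd79b, Ms4a1 and Pou2af1 varied together. Over the 6 arrays their 6 pairwise Pearson correlations were between 0.90 and 0.98. This describes 6 arrays that fall into 2 sets, each with a deposited scale of its own. Against the mean profile of Cd79a, Cd79b and Ms4a1, r was 0.95 for Pou2af1 and 0.99 for Pax5 (1454401_at). It was 0.47 for Blnk, -0.09 for Fcer2a (1422122_at) and -0.72 and -0.77 for the Cd22 probe sets.

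Among 6961 genes with at least a 2-fold range, those most like this profile included several B cell genes. Igkv8-30, an immunoglobulin light chain segment, led with r = 0.997, with 112 and 178 on the KO-labelled arrays, 350.3 and 429 on the wild-type ones, and with 3705 on the LPS array and 1442 in medium. Ighm, the heavy chain of IgM, had r = 0.996 on 1427329_a_at. On 3 further Ighm probe sets (1425247_a_at, 1427870_x_at and 1452535_at) the LPS array was not the highest, with 37.6, 198 and 83.8. Mzb1, a chaperone of immunoglobulin assembly, had r = 0.992, with 48.0 and 97.4 on the KO-labelled arrays, 97.2 and 142 on the wild-type ones, 720 on the LPS array and 476 in medium. Its genotypes overlapped by a narrow margin. Bank1, a B cell scaffold protein gene, had r = 0.991, and Gimap4, a lymphocyte GTPase gene, 0.984. The rest of the 10 were Trim36, Rock1, Clcn6, Dync1h1 and a probe set annotated Mir142, with r between 0.983 and 0.996. Probe sets of immunoglobulin genes can share sequence with related segments, so their gene names are uncertain.

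**Figure D4:**
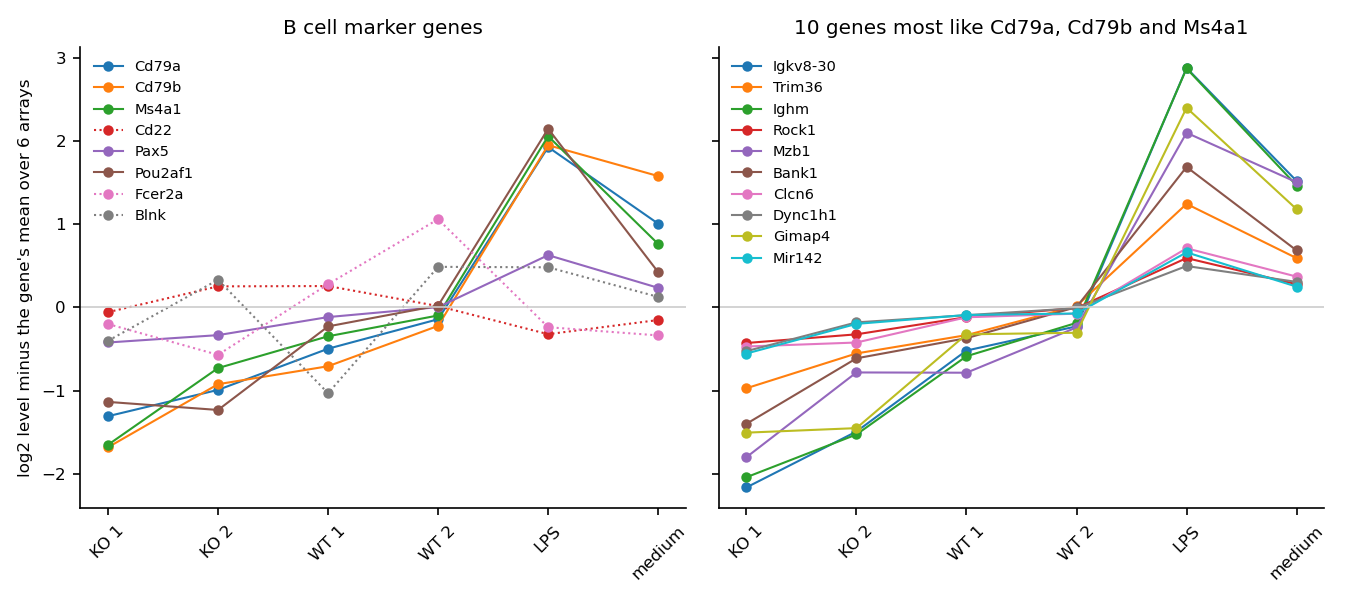
Log2 level on each array (horizontal axis) minus the mean of the gene over the 6 arrays (vertical axis), for the 8 markers (left; dotted for Cd22, Fcer2a and Blnk) and for the 10 genes most like Cd79a, Cd79b and Ms4a1 (right), with lines only to guide the eye. Both panels share the order KO-labelled, wild type of the Trib1 line, medium, LPS from low to high for the solid lines, except Mzb1 between KO 2 and wild type 1.

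The starts of these genes are shown because the members that varied together include the octamer coactivator itself. RefSeq promoters of build GRCm38.p6, from 250 bases before to 50 after the annotated start, matched 6 of the 8 genes, all but Cd79b and Ms4a1. The promoters of Cd79a (chr7:24897247-24897546, + strand), Pou2af1 (chr9:51213440-51213739, + strand) and Blnk (chr19:40994172-40994471, - strand) follow, 5′ to 3′, with motif matches on either strand in capitals.
Cd79a: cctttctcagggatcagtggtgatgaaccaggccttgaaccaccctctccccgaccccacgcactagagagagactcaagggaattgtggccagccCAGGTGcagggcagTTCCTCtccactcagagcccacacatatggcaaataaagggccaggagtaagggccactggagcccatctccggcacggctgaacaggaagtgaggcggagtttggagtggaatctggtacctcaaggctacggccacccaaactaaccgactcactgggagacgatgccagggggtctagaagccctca
Pou2af1: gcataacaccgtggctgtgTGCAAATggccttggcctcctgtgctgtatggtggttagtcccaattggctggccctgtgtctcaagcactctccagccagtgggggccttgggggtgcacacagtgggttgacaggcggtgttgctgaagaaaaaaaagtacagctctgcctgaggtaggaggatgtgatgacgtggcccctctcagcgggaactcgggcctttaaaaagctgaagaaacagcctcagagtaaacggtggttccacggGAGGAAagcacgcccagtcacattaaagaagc
Blnk: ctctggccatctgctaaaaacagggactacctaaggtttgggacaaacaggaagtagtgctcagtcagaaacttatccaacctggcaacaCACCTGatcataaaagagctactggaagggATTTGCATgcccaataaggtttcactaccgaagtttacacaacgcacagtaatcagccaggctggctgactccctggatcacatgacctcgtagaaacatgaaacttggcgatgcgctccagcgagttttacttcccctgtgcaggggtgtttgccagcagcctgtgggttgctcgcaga

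The motifs searched were the octamer ATGCAAAT, its shorter core TGCAAAT, the early B cell factor core CCCNNGGG, the E box CAGGTG and the PU.1 core GAGGAA. The whole octamer was found, among the members, in Blnk alone, at -130 to -123 from the start and on the opposite strand, overlapping its core. Pou2af1 had the core at -231 to -225 and GAGGAA downstream of the start, and Cd79a had CAGGTG at -154 to -149 and the reverse complement of GAGGAA at -140 to -135. Cd22 held CCCNNGGG and CAGGTG, one of the 3 promoters of Fcer2a held CAGGTG, and Pax5 held no match. Of 32851 promoters of this length, 1.74% held ATGCAAAT, 4.02% TGCAAAT, 13.7% CCCNNGGG, 20.2% CAGGTG and 28.3% GAGGAA. These are letter matches only. Blnk, which held the whole octamer, had r = 0.47 with the profile of Cd79a, Cd79b and Ms4a1. A part of these motifs in the shared variation was not tested.

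Counts of list genes with separate genotypes are to be read beside the 16.3% of all probe sets lower and the 15.4% higher on both KO-labelled arrays. Of 21 other B cell surface genes 17 were on the array and 15 tested: limma called 0, both KO-labelled arrays lay below both wild-type arrays for 9 and above for 1, and the median log2 difference was -0.69 (-0.86 to -0.50 with 1 array left out). Of the 9, Cr2 and H2-Ob were under the floor on both KO-labelled arrays and could only count as lower. The smallest p in this list belonged to Cd24a and Cd180. Cd24a, a surface glycoprotein also made by neutrophils, had 1204 and 735 on the KO-labelled arrays and 241 and 250.5 on the wild-type arrays (log2 1.94, limma adjusted p = 0.766). Cd180, a Toll-like receptor relative of B cells and macrophages, had 520.5 and 574 against 996 and 975.4 (-0.85, limma adjusted p = 0.872). Cxcr5, the chemokine receptor that guides B cells into follicles and was picked after its values were seen, had 34.9 and 45.6 against 69.3 and 80.0, and 330.2 and 125 on the LPS and medium arrays. Ltb and Ccr7 were the list members at least 4-fold higher with LPS than in medium, 6.20-fold and 5.47-fold.

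Immunoglobulin chain genes were represented by 7 of 17 names, of which 5 were tested, 0 were called and 1 had separate genotypes. The median was -0.21, but -0.58 without wild type 1 and -0.54 with a floor at the 60th percentile. That gene was Ighm, with 187 and 267 on the KO-labelled arrays, 512 and 676 on the wild-type ones, with 5655 on the LPS array and 2128 in medium (1427329_a_at; log2 -1.40, SE 0.29, limma adjusted p = 0.848). The genotypes of Ighm overlapped on 1427351_s_at, with 157 and 343 against 311 and 988, and 6036 and 1637 in the LPS pair. Jchain, which joins IgM and IgA into polymers, had 40.7 and 64.2 against 62.3 and 139 (-0.87, limma adjusted p = 0.999).

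Of 22 genes of B cell receptor signalling on the array, 21 were above the floor on all 6 arrays, and their differences centred near 0: of 21 tested, 0 were called, 6 lay lower and 3 higher on both KO-labelled arrays, and the median was -0.08 (-0.20 to -0.03 with 1 array left out). The smallest p belonged to Fcgr2b, the inhibitory Fc receptor gene, with 2095 and 2772 against 884 and 1460.2 (log2 1.09, limma adjusted p = 0.899), and Ptpn6, encoding the phosphatase SHP-1, with 2935 and 4109 against 5380.0 and 5966 (-0.71, limma adjusted p = 0.950). Among B cell transcription factor genes 0 of 15 tested were called, 3 lay lower and 0 higher, and the median was -0.10 (-0.23 to -0.05 with 1 array left out, and 0.06 with a floor at the 60th percentile). Mef2c, one of the 3, was under the floor on both KO-labelled arrays, could only count as lower, and was at least 1.78-fold lower than the 47.8 and 59.3 of the wild-type arrays (limma adjusted p = 0.950). Irf8, a factor of both B cells and macrophages, had 9227 and 8017 against 10080.0 and 12588 (-0.39, limma adjusted p = 0.999). Genes typical of B-1 cells, a subset of body cavities, numbered 5, with 0 called. Of these, 0 lay lower and 1, Bhlhe41, higher on both KO-labelled arrays. The median was 0.18 (-0.29 without KO 2, 0.35 at the highest with 1 array left out). The smallest p there belonged to Bhlhe41 (log2 0.21, limma adjusted p = 0.999) and Cd5 (log2 0.18, limma adjusted p = 0.999).

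Markers of other cell types were set beside these values. Summed levels, here and in the next paragraph, cover all genes of a list on the array. Counts and medians cover the tested genes only, and 1 high gene can set a sum. NK cell markers had 5 of 8 tested genes lower on both KO-labelled arrays and 0 higher (median -0.50, and -1.04 without wild type 1), with summed levels of 551 and 634 on the KO-labelled arrays and 2131 and 2164 on the wild-type arrays. Of the 5, Eomes was under the floor on both KO-labelled arrays and could only count as lower. Klrk1, an activating receptor gene, had 230.3 and 263 against 1671 and 1485 (log2 -2.68, limma adjusted p = 0.216), and Gzma had 36.3 and 87.3 against 121 and 170.2. Klrk1 made up most of the NK sums on the wild-type arrays. T cell markers had 2 lower and 2 higher of 8 tested (median -0.05, but 0.13 without KO 1 and 0.25 without KO 2) and summed levels of 4638 and 4477 against 3448 and 3474. Of the T cell list, Cd3d, Cd4, Cd8b1 and Cd2 were under the floor on all 4 arrays of the Trib1 line. The 8 tested genes were above it on 2 or more of them. Among these, Cd8a, Zap70 and Thy1 were picked after their values were seen. Cd8a had 133 and 146 against 87.7 and 144, and Zap70 315 and 474 against 258 and 265. Thy1 had 31.4 and 48.4 against 57.5 and 54.8. Cd247 had 88.4 and 97.9 against 209 and 236, and Il7r 3806 and 3528 against 2565 and 2545. Il7r made up most of the T cell sums. Mast cell and eosinophil markers had 5 lower of 7 tested (median -1.18, and -1.86 without wild type 2) and sums of 759.9 and 533 against 957 and 1543, with Tpsb2 and Cma1 first by p. The sum on KO 1 includes 373 from Hdc, which was not tested. Hdc had 17.3 on KO 2 and 28.2 and 24.3 on the wild-type arrays. Fcer1a in this list was under the floor on both KO-labelled arrays and could only count as lower.

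Neutrophil markers had 6 of 10 tested higher on both KO-labelled arrays, 1 lower (median 1.09, and 0.19 without KO 1) and summed levels of 21708 and 10931 against 3911 and 3320.1. Of the 6, Camp and S100a9 were under the floor on both wild-type arrays and could only count as higher. S100a8 (log2 2.69, limma adjusted p = 0.216) and Mmp8 (3.08, limma adjusted p = 0.848) had the smallest p among them. Mesothelial and stromal markers had 4 of 8 higher and 0 lower (median 0.80, but 1.41 without KO 1 and 0.32 without KO 2; sums of 1855 and 4394 against 1246 and 1584), with Col1a1 and Dcn first by p. Dendritic cell markers had 4 of 10 lower and 1 higher (median -0.29, and -0.63 without KO 1 or without wild type 2; sums of 3359.7 and 5076 against 5606 and 8318), with Itgax and Tcf4 first by p. The 1 that was higher, Dntt, was under the floor on both wild-type arrays. Macrophage identity genes had 3 of 19 lower and 7 higher (median 0.05, 0.14 without wild type 2 and -0.02 with the LPS array added as a wild type; sums of 185135 and 186644 against 165056 and 177488), with Itgam and Cd14 first by p. None of these lists had a gene that passed the test, and their part in the values of the B cell markers was not tested.

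**Figure D5:**
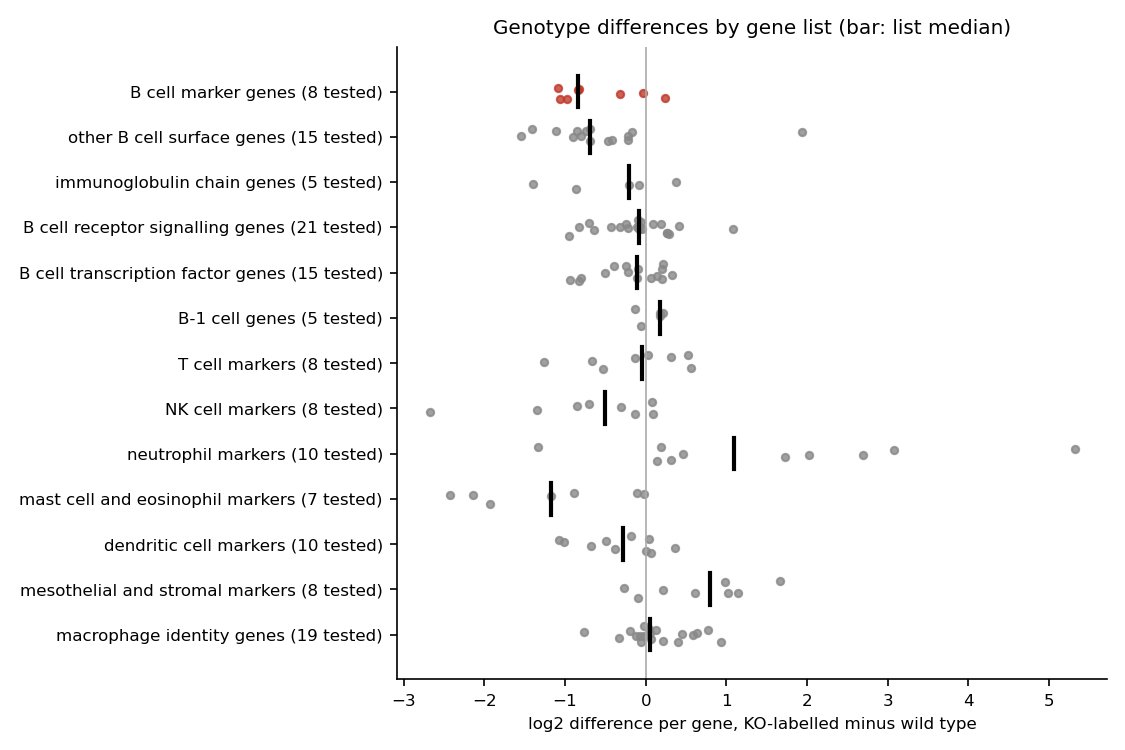
Log2 difference of KO-labelled minus wild-type arrays for each tested gene of 13 lists (points, with random vertical scatter) and the list median (black bar). The B cell markers (red) have a median of -0.84 and neutrophil markers 1.09, and no gene shown passed the test.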

How the data were processed

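RNA of 6 macrophage samples was hybridised, 1 array each, as biotinylated cRNA made from TRIzol-extracted total RNA, per the labels. The deposited values are probe set intensity on a linear scale made by the authors with MAS5, per the submitters' processing notes, with the version and scaling target not given in the sources used here. The deposited 2% trimmed means were 500.0 in the LPS pair and between 95.5 and 107 in the Trib1 line. Groups came from sample titles. The 64 control probe sets were left out after scaling, which left 45037, of which 34945 carry 1 gene symbol, 932 several and 9160 none; 34741 matched RefSeq gene identifiers and took the symbols of that table.

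Values were scaled to the mean of the 6 trimmed means, floored at the pooled 40th percentile and put on the log2 scale. Those exceeding it on 2 or more of the 4 Trib1-line arrays were fitted with limma 3.58.1 in R 4.3.3 (lmFit, eBayes with a mean-variance trend, 2 residual and 3.68 prior degrees of freedom), two-sided, with Benjamini-Hochberg adjustment over all probe sets tested and a threshold of 0.05. An exact permutation test of 2 against 2 cannot go below p = 0.333. LPS against medium was a ratio with a 4-fold rule. The number of arrays limits the precision. In list counts the probe set with the highest mean stood for a gene, and names missing from the single-gene annotation were not analysed here.

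Named were the members with every probe set, from each other list the genes that passed or else the 2 with the smallest p, up to 2 past the 4-fold rule, and the 10 genes with the highest Pearson r. The members and lists were chosen with earlier results of these data known. The lists were other B cell surface, immunoglobulin chain, receptor signalling, transcription factor and B-1 cell genes, and markers of T cells, NK cells, neutrophils, mast cells and eosinophils, dendritic cells, mesothelial and stromal cells and macrophages. The fit was checked on arrays generated with known differences larger than those of the markers, so the check does not cover differences of their size. Alternatives covered scaling, floor, filter, block, prior, arrays left out and fold rule. Figures used Python 3.11.15 with matplotlib 3.10.9, numpy 2.4.6 and pandas 2.3.3.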

Additional observations from a re-analysis of the deposited data

How the results depend on the processing

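No B cell marker probe set was called by limma under any of the 13 alternatives. Over all probe sets, the count called between genotypes was 0 but became 116 with the number in the titles as a replicate block (85 higher, 31 lower), and from 5 to 68 when 1 array was left out (28 without KO 1, 68 without KO 2, 5 without wild type 1 and 12 without wild type 2). The lowest adjusted p of a marker under the block was 0.263 (Ms4a1, 1450912_at). Unadjusted limma p under the block was below 0.05 for Ms4a1 (1450912_at), Pou2af1 and Fcer2a, as in the main fit. It was also below 0.05 for Cd79a (0.036), Cd79b (0.045) and Ms4a1 on 1423226_at (0.015). Over all probe sets, those lower at this threshold rose from 788 to 1807. Deviations of same-numbered arrays from their genotype means correlated at 0.35 across probe sets, which with 2 numbers does not show that the arrays are paired. Cd79a, Cd79b, Ms4a1, Pou2af1, Pax5 and Fcer2a had differences under 0 in all settings that tested them; Pou2af1 came to -0.22 with the floor at the 60th percentile, which lies above its KO-labelled values, and with the values as deposited Ms4a1 on 1450912_at came to -0.37 and Fcer2a to -0.57. Cd22 turned to 0.029 with the values as deposited (1419768_at), and to 0.11 and 0.066 (1419769_at) with the LPS array added as a wild type, when Blnk came to -0.014. With 1 array left out, Cd22 ran from -0.19 to 0.12 and from -0.40 to 0.048, and Blnk from -0.52 to 1.00. The marker probe sets with separate genotypes numbered 7, or 5 with the floor at the 60th percentile.

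For LPS against medium, the probe sets past 4-fold numbered 461, and 1605 as deposited, 966 with the floor at the 25th percentile, 936 with wild type 2 of the Trib1 line in place of the LPS array, 3293 at 2-fold and 99 at 8-fold. Marker probe sets past the rule numbered 0, and 1 with wild type 1 in place of the LPS array (Cd79b, lower) and 3 at 2-fold. The cause of these moves was not tested.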
